A study of Sus scrofa with 3 samples.

Results

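Retinoic acid synthesis, breakdown and response were followed in the tooth germs of the miniature pig through 4 genes: *ALDH1A1*, *CYP26A1*, *RARRES1* and *MEIS1*. They are 4 of the 6765 genes named on the array, and they are read by 8 of its 23999 probe sets. A probe set is the group of short probes that reports 1 transcript, and all probe sets whose only symbol in the platform's gene table is 1 of these names were taken. The genes were chosen by their signals on the same 3 arrays, because the synthesis enzyme fell while the degrading enzyme rose over the stages. Their values are therefore a description, and their directions carry no test.

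The tissue was the last deciduous molar germ of the mandible with its dental lamina, the epithelial band from which the tooth and its successor bud. Germs of Wuzhishan miniature pig embryos and fetuses were pooled within 1 litter on each of gestational days 40 (E40, cap stage), 50 (E50, early bell stage) and 60 (E60). E60 is called the secretory stage in the labels and the late bell stage in the methods. No treatment or genetic change was involved, and 1 Affymetrix Porcine Genome Array was run for each stage. The stage, the litter and the array therefore cannot be told apart, and no p-value or replicate error could be given. In whole germs, fewer cells of a type and less RNA per cell cannot be told apart either.

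Retinoic acid is the active form of vitamin A. Retinol is carried by binding proteins, oxidised to retinal by alcohol and short-chain dehydrogenases, and then oxidised to retinoic acid by retinal dehydrogenases, of which ALDH1A1 is a member. The acid binds receptors of the RAR and RXR families on DNA and switches target genes, and the CYP26 enzymes break it down. Among known targets is *CYP26A1* itself, and both a lack and an excess of vitamin A are known to disturb tooth and enamel formation.

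Values are MAS 5.0 signals in arbitrary units, obtained as 2 to the power of the deposited log2 value. After trimming 2% at each end, the mean signal was 500.1 on all 3 arrays, and the median was 163.5 (E40), 125.0 (E50) and 132.0 (E60). Each array had a floor at its 25th percentile, 29.3 (E40), 17.2 (E50) and 21.8 (E60), to which lower signals were raised. A fold with 1 raised signal is a bound and is written "at least". Folds over 2 were called. The methods of the study set the same fold, together with filters by detection call and by a significance analysis of microarrays. Neither filter was applied here.

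*ALDH1A1*, the enzyme that makes retinoic acid from retinal, had its highest signal at the cap stage. Its brightest probe set gave 800.5 on E40, 109 on E50 and 48.4 on E60. The signal was thus highest on E40 and lowest on E60, and it stayed above the floor of each array. Between E40 and E50 it was 7.37-fold lower (log2 fold -2.88), and between E50 and E60 a further 2.25-fold lower (-1.17). From E40 to E60 it was 16.5-fold lower (-4.05), and 71.2% of this log2 change lay between E40 and E50.

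The other probe set of *ALDH1A1* gave 93.5 on E40, 39.2 on E50 and 21.7 on E60. The order of the stages was the same, and the E60 signal was just under the floor of that array. It was 2.38-fold lower from E40 to E50, at least 1.80-fold lower from E50 to E60, and at least 4.29-fold lower from E40 to E60. The bound on the second of these was under 2-fold and was not called, so the later step of the gene was called on 1 of its 2 probe sets.

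*CYP26A1*, the cytochrome P450 that clears retinoic acid, showed the opposite order of stages. Its only probe set gave 879.9 on E40, 3179 on E50 and 4354 on E60. E40 was the low stage, and E50 and E60 were both high. The signal was 3.61-fold higher by E50 (log2 fold 1.85) and 4.95-fold higher by E60 (2.31), both relative to E40. The step from E50 to E60 was 1.37-fold (0.45) and was not called, and 80.3% of the log2 change lay between E40 and E50.

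**Figure D1:**
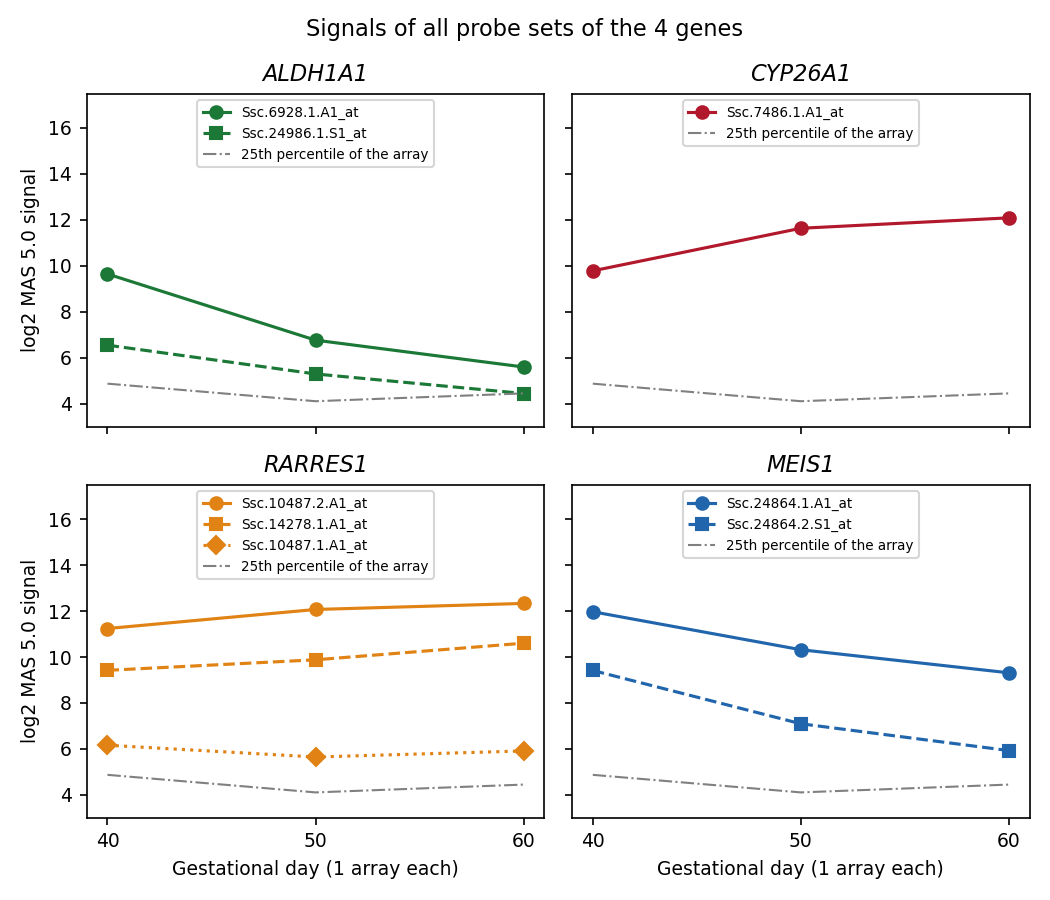
Log2 MAS 5.0 signal (vertical axis) of all 8 probe sets of *ALDH1A1*, *CYP26A1*, *RARRES1* and *MEIS1* against gestational day (horizontal axis), 1 array per day, with the 25th percentile of each array in grey and the probe set names in each legend. Both probe sets of *ALDH1A1* and of *MEIS1* are highest on E40, the probe set of *CYP26A1* is lowest there, and 1 of the 3 probe sets of *RARRES1* does not follow the others.

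*RARRES1* encodes a membrane protein and was first described as a gene that a synthetic retinoid induces in skin. Its brightest probe set gave 2418 on E40, 4296 on E50 and 5156 on E60. Its next brightest gave 685 on E40, 941 on E50 and 1554 on E60. Both were lowest on E40 and highest on E60. From E40 to E50 both rose by less than *CYP26A1*. From E50 to E60 the brightest also rose by less (log2 fold 0.26, against 0.45 for *CYP26A1*), but the next brightest rose by more (0.72).

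None of the single steps of *RARRES1* passed 2-fold as deposited, and the first did with equal medians (log2 fold 1.22). From E40 to E50 the brightest probe set was 1.78-fold higher and the next brightest 1.37-fold higher. From E50 to E60 the folds were 1.20 and 1.65 in the same order. Across both steps, from E40 to E60, these probe sets were 2.13-fold and 2.27-fold higher and both were called. The first step held 75.9% of the log2 change of the brightest probe set and 38.8% of that of the next brightest, so the 2 do not place the change at the same time.

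The dimmest probe set of *RARRES1* gave 71.5 on E40, 50.1 on E50 and 60.2 on E60. It was not called in any pair of stages, and its log2 fold on E60 versus E40 was -0.25, against 1.09 for the brightest probe set. The call of the gene on E60 versus E40 was within 2-fold as the mean over the 3 probe sets (0.67) and after quantile normalization (0.98).

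*MEIS1* encodes a homeodomain transcription factor of the TALE class that works with PBX and HOX proteins, and MEIS genes are known to respond to retinoic acid in other embryonic tissues. Its brightest probe set gave 4013 on E40, 1275 on E50 and 636 on E60. Its other probe set gave 682 on E40, 137 on E50 and 60.8 on E60. Both were highest on E40, intermediate on E50 and lowest on E60, the order seen for *ALDH1A1*.

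The brightest probe set of *MEIS1* was 3.15-fold lower by E50 (log2 fold -1.65), and the other was 4.99-fold lower (-2.32). From E50 to E60 the folds were 2.01 and 2.25 lower, and from E40 to E60 they were 6.31 and 11.2 lower. All 6 folds were called. The 2.01-fold lay at the threshold, and it was within 2-fold after quantile normalization (-0.96) and after scaling to housekeeping genes (-0.91). A further probe set, named *MEIS1* in the gene table of the study, has no symbol in the platform's table and was not counted among the 8. It gave 126 on E40 and was under the floor on E50 (6.48) and E60 (3.52), at least 7.29-fold lower on E50 than on E40.

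Read by the brightest probe set, 1 of the 4 genes was called higher (*CYP26A1*) and 2 lower (*ALDH1A1* and *MEIS1*) on E50 versus E40. Over all 18379 probe sets measured in that pair, 2.6% were called higher and 15.6% lower. In the E60 versus E50 pair none was called higher and the same 2 were lower, beside 6.37% of 18593 probe sets higher and 1.88% lower. On E60 versus E40, *CYP26A1* and *RARRES1* were higher and *ALDH1A1* and *MEIS1* lower, beside 4.51% of 18625 higher and 12.6% lower. Since these contrasts chose the genes, the shares are given for scale only.

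The shares of all probe sets also moved with the scaling of the arrays. Of the probe sets called on E50 versus E40, 14.3% were higher with the deposited values, 44.6% with equal medians and 42.5% after quantile normalization. On E60 versus E40 the share was 26.4% with the deposited values, 52.6% with equal medians and 47.5% after quantile normalization. For E60 versus E50 it was 77.2% with the deposited values and 59.5% after quantile normalization. The sign of the fold of each of the 4 genes, by the brightest probe set, stayed as deposited under every scaling tried.

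Within the distribution of all measured probe sets, the folds of the 4 genes lay at different distances from the centre. On E50 versus E40, 0.484% of measured probe sets had a log2 fold at or above that of *CYP26A1*. In the same pair, 1.82% lay at or below the brightest probe set of *ALDH1A1*, 7.35% at or below that of *MEIS1*, and 4.15% at or above that of *RARRES1*. On E60 versus E50 the values at or below were 1.12% for *ALDH1A1* and 1.84% for *MEIS1*, while 21.9% lay at or above *CYP26A1* and 32.2% at or above *RARRES1*. At the later step *CYP26A1* and *RARRES1* lay nearer the centre than *ALDH1A1* and *MEIS1*. All these ranks are of brightest probe sets. Since the genes were chosen on these same values, the ranks are given for scale only.

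**Figure D2:**
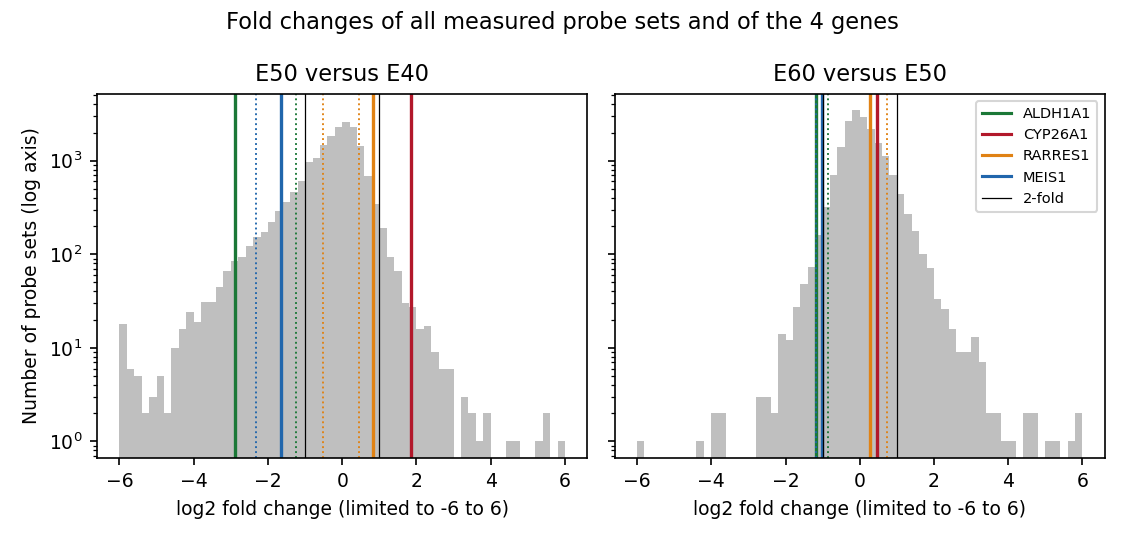
Number of measured probe sets (log axis) by log2 fold change for E50 versus E40 (left) and E60 versus E50 (right), with the brightest probe set of each of the 4 genes as a solid line, the others dotted, and 2-fold in black. *CYP26A1* lies in the upper tail on E50 versus E40 and inside the body on E60 versus E50, whereas *ALDH1A1* and *MEIS1* lie toward the lower tail in both.

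The only measure of error in these arrays is how far probe sets of 1 gene differ. Where a gene had 2 or more measured probe sets (1596 genes), their log2 folds on E50 versus E40 differed with an SD of 0.77. The SD was 0.58 on E60 versus E50 (1625 genes) and 0.70 on E60 versus E40 (1596 genes). This spread mixes noise with unlike probes, and it leaves out the spread between litters.

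**Figure D3:**
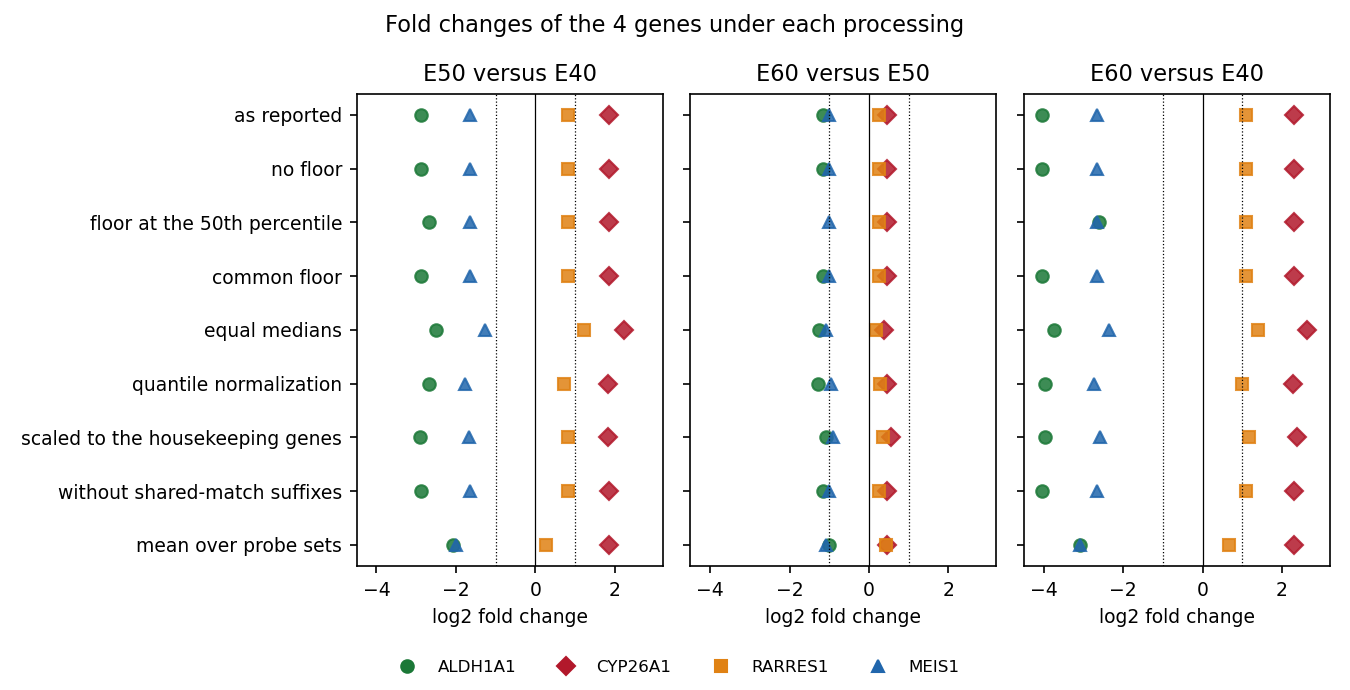
Log2 fold change (horizontal axis) of *ALDH1A1*, *CYP26A1*, *RARRES1* and *MEIS1* in each pair of stages, as reported (top) and under each other processing of the arrays, with 2-fold dotted. No marker crosses 0, and *RARRES1* sits near the 2-fold line on E60 versus E40. *ALDH1A1* on E60 versus E40 is at -4.05 as reported and at -2.60 with a floor at the 50th percentile, where it is a bound.

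The wider retinoid pathway was read from a list of 82 genes, of which 36 are named on the array. Of 31 measured on E50 versus E40, 4 were higher and 5 lower, beside 2.6% and 15.6% of all probe sets, and the median log2 fold was -0.28 beside -0.11 over all measured probe sets. On E60 versus E50, 2 of 31 were higher and 4 lower, beside 6.37% and 1.88% (median -0.19, beside 0.02), and on E60 versus E40, 5 of 32 were higher and 7 lower, beside 4.51% and 12.6% (median -0.21, beside -0.11). Without the 4 genes, E50 versus E40 had 3 of 27 higher and 3 lower, with 2 of 27 higher and 2 lower on E60 versus E50, and 3 of 28 higher and 5 lower on E60 versus E40. Most measured genes of the pathway were within 2-fold in each pair.

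Among the binding proteins, *CRABP2*, which carries retinoic acid to its receptors, gave 1304 on E40, 2993 on E50 and 1493 on E60. By E50 it was 2.30-fold higher and by E60 2.01-fold lower again, so that E50 stood above both other stages, unlike any of the 4 genes. The second of these lay at the threshold and was within 2-fold after quantile normalization (log2 fold -0.98) and housekeeping scaling (-0.91). *FABP5*, a fatty acid binding protein that can also carry retinoic acid, gave 4372 on E40, 1839 on E50 and 1806 on E60. Relative to E40 it was 2.38-fold lower on E50 and 2.42-fold lower on E60. Both were within 2-fold with equal medians (log2 folds -0.86 and -0.97). The other probe set of *FABP5* was 2.33-fold lower on E50 and 1.79-fold lower, not called, on E60. *RBP4*, the carrier of retinol in blood, was within 2-fold on its brightest probe set at 367, 380.3 and 212. Its other probe set was under the floor on E40 (10.9) and gave 26.3 on E50 and 60.6 on E60. That one was called higher, 2.31-fold on E60 versus E50 and at least 2.07-fold on E60 versus E40. *RBP5* was within 2-fold near the floor. *RBP2*, *RBP7* and *TTR* were under the floor on all 3 arrays.

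Of the 7 named genes of retinol storage and oxidation, 2 were higher on E60 than on E40, beside 4.51% of all probe sets. None was lower in any pair, by the symbols of the platform, beside 15.6% (E50 versus E40), 1.88% (E60 versus E50) and 12.6% (E60 versus E40). *DHRS7*, a short-chain dehydrogenase, gave 295 (E40), 835 (E50) and 701 (E60), and its first step was 2.83-fold higher. *RDH14*, a retinol dehydrogenase, gave 174 (E40), 189 (E50) and 353 (E60), and was 2.03-fold higher across both steps. *BCO2*, which cleaves carotenoids, was under the floor on E40 (25.7) and E50 (16.5) and gave 42.3 on E60, at least 2.45-fold higher for E60 versus E50 and within 2-fold after quantile normalization (log2 fold 0.98). *ADH5*, the brightest of this role, was within 2-fold at 4059, 4587 and 4033, and so were *RDH11*, *DHRS4* and *DGAT1*. Only 7 of 24 genes listed for this role are named. A probe set that the study alone names *RDH13* gave 212 (E40), 112 (E50) and 77.6 (E60), and was 2.73-fold lower on E60 versus E40.

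*ALDH1A1* is the only named gene of 5 listed for retinoic acid synthesis, and *CYP26A1* the only one of 3 listed for breakdown. *ALDH1A2*, *ALDH1A3*, *CYP26B1* and *CYP26C1* carry no symbol in the platform's table and were not analysed here. The balance of the 2 signals therefore describes 1 enzyme on each side.

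Among the receptors, *RXRG* gave 264 on E40, 177 on E50 and 78.7 on E60. It was lowest on E60, 2.25-fold lower than on E50 and 3.36-fold lower than on E40. *RARB*, itself a known target of retinoic acid, was within 2-fold at 71.6, 73.0 and 44.4. *RXRB* was also within 2-fold at 387, 471 and 387, *RARA* was close to the floor, and *RXRA* was under it on all 3 arrays. Of the coregulators, *NCOA1* gave 1496 on E40, 1037 on E50 and 624 on E60, 2.40-fold lower on E60 than on E40. Of its 5 other probe sets, 4 were within 2-fold in that pair and 1 was 5.92-fold lower, and the brightest was within 2-fold with equal medians (log2 fold -0.95). *NCOA2* and *NCOR1* were within 2-fold on their brightest probe sets.

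Besides *RARRES1* and *MEIS1*, 10 genes listed as responsive to retinoic acid were measured, and they did not move in 1 direction. *GPRC5B*, an orphan receptor of a retinoic acid inducible family, gave 880.4 on E40, 2533 on E50 and 3074 on E60. Like *CYP26A1* it was lowest on E40, 2.88-fold higher on E50 and 3.49-fold higher on E60. *MDK*, the growth factor midkine, was within 2-fold at 9626, 12819 and 9958, as were *GPRC5A*, *GPRC5C*, *RARRES2*, *RAI14* and *BHLHE40*.

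**Figure D4:**
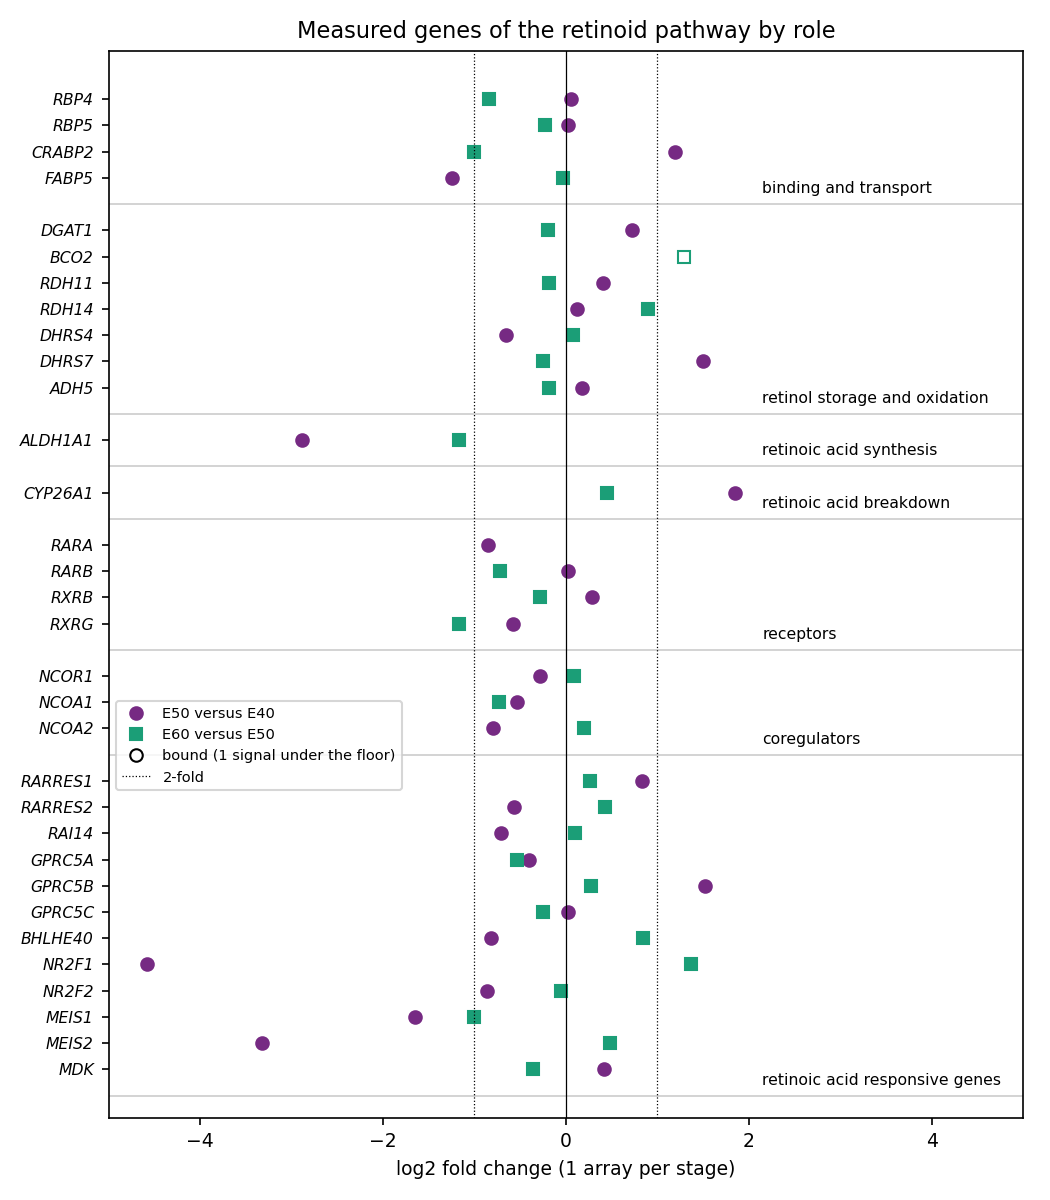
Log2 fold change (horizontal axis, 1 array per stage) of each measured gene of the retinoid pathway by its brightest probe set, grouped by role, for E50 versus E40 (circles) and E60 versus E50 (squares), with bounds as open symbols. *ALDH1A1*, *NR2F1*, *MEIS1* and *MEIS2* lie farthest to the left on E50 versus E40, and *CYP26A1*, *GPRC5B* and *DHRS7* farthest to the right.

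Of the 12 responsive genes, 3 were called lower on E50 versus E40, namely *MEIS1*, *MEIS2* and *NR2F1*, beside 15.6% of all probe sets. In that pair 1 was called higher (*GPRC5B*), beside 2.6%. *MEIS1* and *RARRES1*, among the 12, were chosen on these values, and without them the lower genes were *MEIS2* and *NR2F1*. *MEIS2*, a close relative of *MEIS1*, gave 669 on E40, 67.1 on E50 and 94.0 on E60. Relative to E40 it was 9.98-fold lower on E50 and 7.12-fold lower on E60. Its other probe set was above the floor on E40 alone (124) and at least 7.20-fold lower on E50. Unlike *MEIS1*, *MEIS2* had no further decrease from E50 to E60, where its fold was 1.40 higher and not called.

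*NR2F1*, an orphan nuclear receptor known to answer to retinoic acid, gave 625 on E40, 26.2 on E50 and 67.4 on E60. Its first step was 23.9-fold lower and its second 2.58-fold higher. *NR2F1* has 1 probe set, and its E50 signal, on which both folds rest, was near the floor, at percentile 30.6 of that array. Its relative *NR2F2* gave 704 on E40, 389 on E50 and 373 on E60, which is within 2-fold. The 3 other probe sets of *NR2F2* were each called lower on E50 versus E40, by 2.44-fold, by at least 2.78-fold and by 3.01-fold. E40 was thus the high stage on every probe set of *MEIS1*, *MEIS2*, *NR2F1* and *NR2F2*.

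MEIS1 and its partners were read from a list of 64 TALE and HOX genes, of which 11 are named and 7 were measured. On E50 versus E40, 2 of 7 were lower, beside 15.6% of all probe sets, and none higher, beside 2.6% (median log2 fold -0.73). On E60 versus E50 1 was lower, beside 1.88% (median 0.01), and on E60 versus E40 2 were lower, beside 12.6% (median -0.23). The genes called were *MEIS1* and *MEIS2*. *PBX2*, a DNA-binding partner of MEIS proteins, was within 2-fold at 1093, 1200 and 1208, and so were *PKNOX2*, *TGIF1*, *HOXD8* and *HOXD10*. *HOXA3*, *HOXA9*, *HOXB7* and *HOXD12* were under the floor on all 3 arrays.

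Markers of muscle and keratinised epithelium, like *ALDH1A1* and *MEIS1*, were lower after E40. The summed signal of 22 skeletal muscle markers was 47651 (E40), 1247 (E50) and 4173 (E60). The first step was lower for 21 of 21 measured (median log2 fold -4.96), beside 15.6% of all probe sets. *MYOD1*, a defining factor of muscle precursors, gave 238 on E40 and was under the floor on E50 (2.02) and E60 (14.0). From E50 to E60, 3 of 14 measured muscle markers were higher and 1 lower (median 0.05), beside 6.37% and 1.88% of all probe sets. Most of the higher sum on E60 than on E50 was *MYL1*, at 481 on E50 and 3266 on E60. Of the 22 muscle markers, 16 were above the floor on E50 and 12 on E60. Their part in the signals of *ALDH1A1*, *MEIS1*, *MEIS2* and *NR2F1* was not tested.

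The 6 markers of keratinised epithelium summed to 10790 (E40), 1895 (E50) and 2403 (E60), and the first step was lower for 4 of 5 measured. *IVL*, the involucrin gene, gave 3255 on E40, 14.2 on E50 and 27.4 on E60. Of 10 measured endothelial markers 3 were lower on E50 versus E40 and none higher, with summed signals between 2046 and 3525. Over all probe sets, 15.6% were lower in that pair and 2.6% higher. No erythroid or macrophage marker was called on E50 versus E40. The median log2 fold was -0.74 for macrophage markers and -0.76 for endothelial ones. Of 3 measured cartilage markers, 1 was lower and none higher. Of 5 measured Schwann and nerve markers 2 were higher and 1 lower, with sums of 2325 (E40), 2922 (E50) and 3295 (E60). Dentin markers, of which 3 of 6 measured were lower in that pair, are given with the tooth. The part of these tissues in the higher E40 signals was not tested.

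The markers of the tooth itself were present and did not move in 1 direction. Most enamel markers were higher at the later stages, like *CYP26A1* and *RARRES1*. The 8 dentin and odontoblast markers summed to 10932 (E40), 5535 (E50) and 15095 (E60). On E50 versus E40, 3 of 6 measured were lower and 1 higher, beside 15.6% and 2.6% of all probe sets. On E60 versus E50, 4 of 7 were higher and none lower, beside 6.37% and 1.88%. On E60 versus E40, 1 of 7 was higher and 1 lower, beside 4.51% and 12.6%. The 6 named regulators of dental epithelium and mesenchyme summed to 17270 on E40, 22564 on E50 and 19531 on E60. The 5 enamel and ameloblast markers, which define the cells that lay down enamel, summed to 223 on E40, 5143 on E50 and 59209 on E60. *AMBN*, the enamel matrix gene ameloblastin, gave 59.8 on E40, 2675 on E50 and 29942 on E60. On E60 versus E40, 4 of the 5 enamel markers were higher, beside 4.51% of all probe sets, and 1 was lower, beside 12.6%. The lower one was *KLK4*, a protease of enamel maturation, at 75.1 (E40) and under the floor on E50 (10.4) and E60 (6.98). From E50 to E60 the log2 fold of *AMBN* was 3.48, and that of *CYP26A1* was 0.45. The part of ameloblasts in the signals of *CYP26A1* and *RARRES1* was not tested.

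**Figure D5:**
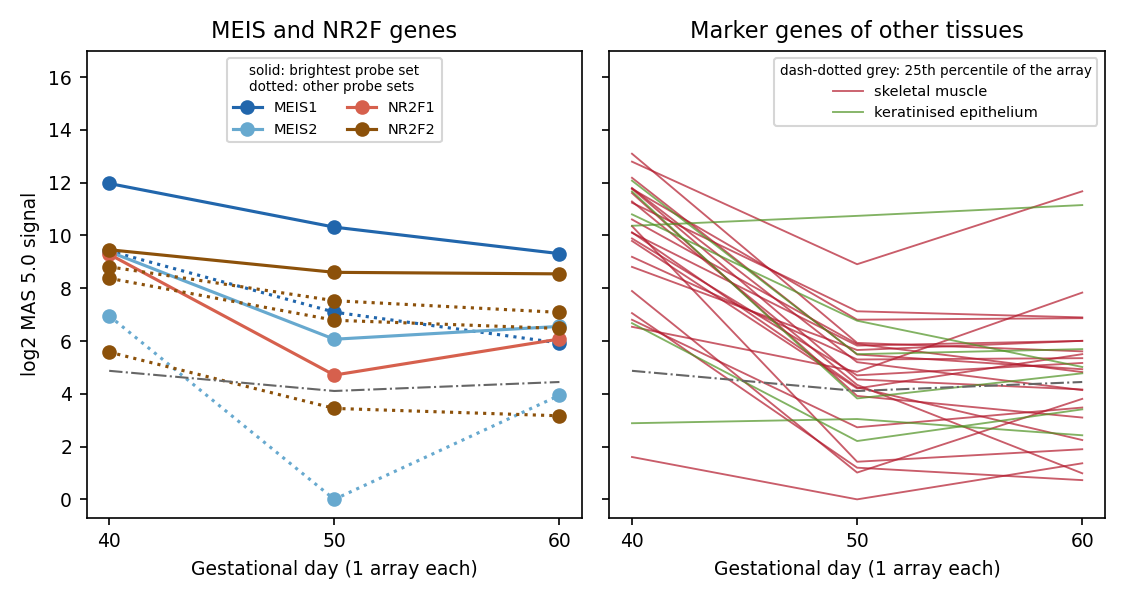
Log2 MAS 5.0 signal (vertical axis) against gestational day, 1 array per day, for all probe sets of *MEIS1*, *MEIS2*, *NR2F1* and *NR2F2* (left) and for each marker gene of skeletal muscle and keratinised epithelium (right). The MEIS and NR2F probe sets are highest on E40, and so are most markers of muscle and keratinised epithelium.

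The genes whose profile was most like that of each of the 4 were sought among 5742 genes with all 3 signals above the floor. The measure was the Euclidean distance of the 2 log2 steps, over 3 arrays. Nearest to *ALDH1A1* were *LRIG1* (distance 0.25), *DAPL1* (0.49), *ELF3* (0.61), *FNDC1* (0.91) and *PGAM2* (0.92). *LRIG1*, a membrane protein that restrains growth factor receptors, gave 967 on E40, 135 on E50 and 71.2 on E60. *ELF3* is a transcription factor of epithelia, and *PGAM2* the muscle form of a glycolytic enzyme.

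Nearest to *CYP26A1* were *CYCS* (0.17), *EMB* (0.23), *ALPL* (0.31), *LYPD6* (0.31) and *PCSK2* (0.32). *ALPL*, the alkaline phosphatase of mineralising tissues, gave 875 on E40, 3847 on E50 and 5749.7 on E60. Nearest to *RARRES1* were *CA3* (0.02), *HSPA2* (0.03), *SLC1A4* (0.04), *FN3K* (0.06) and *THOC7* (0.07). Nearest to *MEIS1* were *IL1A* (0.31), *LPIN1* (0.31), *MAL* (0.38), *PRKAA2* (0.45) and *DDX11* (0.48). *LPIN1*, an enzyme of lipid synthesis, gave 1274 on E40, 501 on E50 and 256 on E60. With 3 arrays and 2 steps, likeness of profile rests on 2 numbers a gene.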

How the data were processed

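RNA of molar germs pooled within 1 litter a stage was extracted with TRIZOL, labelled with a 3′ IVT kit and hybridised, 1 Affymetrix Porcine Genome Array a stage. The authors scanned with Command Console 3.1, computed MAS 5.0 signals in Gene Spring 11.0 and deposited them as log2 values, which were used as given. MAS 5.0 scales each array to 1 mean, so changes are relative to that mean, and low signals are noisy. Of 24123 probe sets, 124 controls were left out. Of the rest, 10069 carry 1 symbol, 198 several and 13732 none in the platform's annotation, and only those with 1 symbol were named. Gene IDs of 9961 matched the reference gene table and 0 symbols changed. The ID given for *MEIS1* is not in that table, where the symbol stands under another ID. The files name no genome build, so no coordinates are given, and promoter and protein sequences were not used here.

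Signals under the 25th percentile of their array were raised to it, and folds over 2 were called. No fold was given where both signals were under the floor or a raised signal passed the other. A gene was read by its brightest probe set (highest mean log2 signal). With 1 array per stage no test was run. The members and lists were chosen with earlier results of these data known. Named are the 4 genes, every called gene of the retinoid, TALE and HOX lists with the brightest of each role, at most 4 of the brightest of other lists, and 5 nearest profiles a gene. *MYOD1*, *IVL*, *KLK4*, the probe sets named by the study alone and genes given as within 2-fold or under the floor beyond the brightest of a role were named after their values were seen. *MYL1* was likewise named after its values were seen. The columns of other series numbered 0. Python 3.11.15, pandas 2.3.3, numpy 2.4.6 and matplotlib 3.10.9 were used. The alternatives were a floor at the 50th percentile, a common floor or none, equal medians, quantile normalization, housekeeping scaling, a 3-fold threshold, no probe sets with shared-match suffixes, the mean over probe sets and, added after the data were seen, each other probe set of a gene.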

Additional observations from a re-analysis of the deposited data

How the results depend on the processing

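Over the other settings, 95 log2 folds of the 4 genes were recomputed. All 95 kept their sign, 92 stayed within 1.5-fold of the reported fold, and 5 changed their call. Many of the 95 could not differ. A common floor, no floor and leaving out shared-match suffixes returned the reported fold for every gene. The floor at the 50th percentile did so for *CYP26A1*, *RARRES1* and *MEIS1*, and the mean over probe sets for *CYP26A1*, which has 1 probe set. The counts therefore overstate how far the folds were put to trial. For *ALDH1A1* the log2 fold on E50 versus E40 was -2.07 as the mean over probe sets and -1.25 on its other probe set. On E60 versus E40 it was -3.08 as the mean over probe sets. In that pair a floor at the 50th percentile gave -2.60 and the other probe set -2.10, both bounds because the E60 signal was raised to the floor. On E60 versus E50, where E50 and E60 were both under the 50th percentile, that floor gave no fold. The other probe set of *MEIS1* gave -2.32 for E50 versus E40 and -3.49 for E60 versus E40. The dimmest probe set of *RARRES1* gave -0.51 for E50 versus E40 and -0.25 for E60 versus E40, against the direction of the brightest. *RARRES1* was called higher on E50 versus E40 with equal medians (1.22).

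Of the list counts, 89 were kept within 1.5-fold and 19 moved. For the retinoid pathway, a 3-fold threshold left 1 of 4 higher on E50 versus E40, 2 of 5 higher on E60 versus E40, and 0 of 2 higher and 0 of 4 lower on E60 versus E50. In that last pair the higher count was 1 with a common floor, 0 with a floor at the 50th percentile and 1 after quantile normalization, and the lower count was 2 under the 50th percentile floor, quantile normalization and housekeeping scaling. Without a floor 8 were lower on E50 versus E40. For the TALE and HOX list, 1 gene was higher in each pair without a floor, and 1 on E60 versus E50 as the mean over probe sets. The lower count on E60 versus E50 was 0 at 3-fold, after quantile normalization and with housekeeping scaling, and 2 without a floor. The cause was not tested. The median log2 fold over all measured probe sets on E50 versus E40 was -0.11 as deposited, 0.27 with equal medians, 0.09 after quantile normalization and -0.13 with housekeeping scaling.

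No paired analysis was possible because each stage has 1 array, and for the same reason no replicate was left out. The dimmer probe set of *ALDH1A1* was under the floor on E60, which makes its folds there bounds.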

Other observations

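By the brightest probe set of each gene, *ALDH1A1* alone of the measured aldehyde dehydrogenases was called lower in all 3 pairs of stages. It was chosen for this fall, and its other probe set was not called on E60 versus E50 (at least 1.80-fold lower). Of all 23999 probe sets, 29 were called lower at both steps. Of 10 measured genes of the family, *ALDH1A1* included, 1 was higher and 3 lower on E50 versus E40, none higher and 2 lower on E60 versus E50, and none higher and 3 lower on E60 versus E40. Over all measured probe sets the shares lower were 15.6%, 1.88% and 12.6% in the same order, and the shares higher 2.6%, 6.37% and 4.51%. *ALDH2*, the mitochondrial enzyme that clears acetaldehyde, gave 1697 (E40), 4330.2 (E50) and 1827 (E60), and was the gene called higher on E50 and, with *ALDH1A1*, lower on E60 versus E50. *ALDH9A1*, *ALDH18A1* and *ALDH3A2* were within 2-fold in every pair. The other lower genes, named after their values were seen, were *ALDH1L1* and *ALDH1L2* on E50 versus E40 and *ALDH1L1* and *ALDH7A1* on E60 versus E40. *ALDH1L1* gave 59.7, 27.8 and 26.3, *ALDH1L2* 37.6, 18.1 and 23.1, and *ALDH7A1* 524, 307 and 258 on E40, E50 and E60.

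Among cytochromes P450 and their reductase, *CYP26A1* was the gene called higher of 9 measured on E50 versus E40, and 2 were lower, beside 2.6% and 15.6% of all probe sets. The lower ones were *CYP2C49* and *CYP27B1*, both under the floor on E50. *CYP26A1* was chosen for its rise, and without it no gene of the list was called higher in that pair. On E60 versus E40, *CYP26A1* and *CYP27A1* were higher of 10 measured and none was lower, beside 4.51% and 12.6%. *CYP27A1*, a sterol hydroxylase, gave 237 (E40), 277 (E50) and 696 (E60), so that its change lay in the step where *CYP26A1* was within 2-fold. From E50 to E60, *CYP27A1* was the gene called higher of 11 measured, and *CYP24A1* and *CYP39A1*, with roles in vitamin D and cholesterol breakdown, were the 2 called lower, beside 6.37% higher and 1.88% lower over all probe sets. A probe set that the study alone names *CYP1B1* gave 60.1 (E40), 20.0 (E50) and 33.7 (E60), and was 3.01-fold lower on E50 versus E40. *CYP24A1*, *CYP2C49* and *CYP27B1* were named after their values were seen. *CYP51* and *CYP2D25*, which with *CYP26A1* are the 3 brightest of the list, were within 2-fold in every pair.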
